A study of Homo sapiens with 9 samples.

Results

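The genes followed here lie outside the zinc finger families, and were picked as nearly silent in at least 1 CHD7 genotype and expressed in another, which PNPLA4 met least well, as its mutant libraries kept a residue. They are TSPYL5, PNPLA4, MAP3K13, TRIM61, ECHDC3, NHIP, CSRP1, ASPG, QPCT and SYT11, 10 of the 26240 genes in the count table. The members were chosen by name for their levels in these same 9 libraries, so their levels and fold changes are descriptions and carry no test. The questions asked of them were whether the silent or expressed state was shared by the 3 libraries of a genotype, and whether it followed the number of intact CHD7 copies.

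RNA sequencing had been done on definitive endoderm differentiated from H9, a long-established line of human embryonic stem cells. The gene for the chromatin remodelling enzyme CHD7 had been deleted with CRISPR/Cas9, and the libraries fell into homozygous mutant (CHD7-/-), heterozygous mutant (CHD7+/-) and wild-type (CHD7+/+) cells, with 3 libraries of each. The total count was 11854173 to 29849352 in homozygous, 23488722 to 30581464 in heterozygous and 24781297 to 37519729 in wild-type libraries. The labels give neither the number of clones per genotype nor separate cultures, so genotype and clone cannot be told apart here, and any p-value reflects library-to-library spread alone, part of which may be technical.

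CHD7 itself followed the labels, at 56.1, 43.0 and 55.5 CPM (counts scaled to a common library size) in homozygous libraries, 110.4, 130.5 and 129.2 CPM in heterozygous libraries and 194.9, 194.9 and 189.2 CPM in wild-type libraries. The 3 genotypes did not overlap. CHD7 RNA was lowered but not absent in homozygous cells, with a mean 0.267 times that of wild-type cells. The homozygous label therefore does not stand for loss of all CHD7 RNA. All 10 definitive endoderm markers looked up were present in every genotype, with a summed level of 7280 to 8440 CPM in homozygous, 8990 to 10100 CPM in heterozygous and 10700 to 11500 CPM in wild-type libraries. CER1 made up the largest part of that sum, with means of 4630, 6120 and 7240 CPM in the same order. FOXA2, EOMES and HHEX also averaged lowest in homozygous and highest in wild-type cells. SOX17, CXCR4, GATA4, GATA6 and GSC also averaged highest in wild-type cells, but lowest in heterozygous cells. KIT averaged highest in heterozygous cells. All 8 stem cell markers looked up were also still present, at unlike levels. In homozygous, heterozygous and wild-type cells POU5F1 averaged 90.0, 159 and 69.6 CPM and LIN28A 2000, 1970 and 2310 CPM. NANOG was lower, at 4.22, 13.2 and 10.4 CPM, and so was SOX2, at 4.39, 13.6 and 4.85 CPM.

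A gene can be switched as a unit when its promoter is packed into closed chromatin or when the CpG dinucleotides of its promoter are methylated. Such a state is copied through cell division, so cells that descend from 1 founder can share it. Human pluripotent stem cell lines are known to differ from one another in the state of some genes, TSPYL5 among them. CHD7 binds mainly at enhancers and some promoters and moves nucleosomes there.

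The promoter windows of 5 members are shown because they stand for the patterns described below, PNPLA4 and TRIM61 for a level that was highest in wild-type cells, MAP3K13 for one that was lowest in homozygous cells, NHIP for one that was higher in both mutants and SYT11 for one that was highest in homozygous cells. Each is the RefSeq window on GRCh38.p14 from 250 bases before to 50 bases after the annotated start, 5′ to 3′ along the gene, and the capitals mark CpG dinucleotides.
PNPLA4 (chrX:7927675-7927974, minus strand): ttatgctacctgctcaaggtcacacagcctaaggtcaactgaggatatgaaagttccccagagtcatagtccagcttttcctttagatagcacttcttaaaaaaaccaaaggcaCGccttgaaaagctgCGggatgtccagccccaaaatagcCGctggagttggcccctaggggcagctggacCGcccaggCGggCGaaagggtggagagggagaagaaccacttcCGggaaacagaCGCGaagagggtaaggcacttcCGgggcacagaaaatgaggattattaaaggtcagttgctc
TRIM61 (chr4:164977608-164977907, minus strand): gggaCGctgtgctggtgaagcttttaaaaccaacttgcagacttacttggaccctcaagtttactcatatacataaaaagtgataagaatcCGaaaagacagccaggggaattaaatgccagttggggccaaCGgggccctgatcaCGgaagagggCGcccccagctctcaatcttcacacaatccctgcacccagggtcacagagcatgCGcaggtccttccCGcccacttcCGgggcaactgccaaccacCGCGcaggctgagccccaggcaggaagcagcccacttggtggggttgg
MAP3K13 (chr3:185282711-185283010, plus strand): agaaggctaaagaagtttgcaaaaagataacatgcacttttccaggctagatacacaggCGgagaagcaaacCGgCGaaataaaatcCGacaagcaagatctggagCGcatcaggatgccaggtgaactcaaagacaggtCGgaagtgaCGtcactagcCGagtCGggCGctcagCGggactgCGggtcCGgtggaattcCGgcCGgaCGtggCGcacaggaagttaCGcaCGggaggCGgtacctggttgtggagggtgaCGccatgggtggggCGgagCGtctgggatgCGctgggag
NHIP (chr22:49052336-49052635, minus strand): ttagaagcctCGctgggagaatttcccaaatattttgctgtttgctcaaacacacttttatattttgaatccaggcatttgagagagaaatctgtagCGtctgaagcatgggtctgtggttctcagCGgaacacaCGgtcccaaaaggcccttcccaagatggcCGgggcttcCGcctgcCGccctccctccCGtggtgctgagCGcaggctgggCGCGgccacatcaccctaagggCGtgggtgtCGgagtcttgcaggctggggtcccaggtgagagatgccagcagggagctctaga
SYT11 (chr1:155859317-155859616, plus strand): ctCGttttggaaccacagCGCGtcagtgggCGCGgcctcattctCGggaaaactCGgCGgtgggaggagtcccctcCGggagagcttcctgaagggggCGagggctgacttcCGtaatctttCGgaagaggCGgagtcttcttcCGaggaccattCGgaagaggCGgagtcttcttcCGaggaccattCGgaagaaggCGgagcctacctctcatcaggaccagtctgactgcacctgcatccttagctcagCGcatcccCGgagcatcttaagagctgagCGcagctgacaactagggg

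In this report CPM is the deposited count scaled to the library's effective size, a genotype is called off for a gene when its 3 libraries are each under 0.5 CPM, and on when they are each at or above 2 CPM. In bulk libraries such as these, fewer expressing cells and less RNA per expressing cell cannot be told apart. Intervals below are exact Poisson intervals at the 95% level. Where a genotype held 0 counts, folds were taken from its mean level set at a floor of 3 counts over the genotype, against the mean of the other genotype. Both cover counting error only, and the folds leave out the error of the other mean.

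The 3 genes seen in wild-type cells and little or not in either mutant were TSPYL5, PNPLA4 and TRIM61. TSPYL5, a member of the TSPY-like and nucleosome assembly protein family that binds the deubiquitinase USP7, is a gene of 1 exon on chromosome 8 (97273474 to 97277964, minus strand), the chromosome that also carries CHD7. It had 0 counts in each of the 3 homozygous libraries and in each of the 3 heterozygous libraries, against 67, 71 and 62 counts in wild-type replicates 1, 2 and 3. No mutant library held a single count. The wild-type counts were 1.80, 2.33 and 2.57 CPM, so replicate 1 lay just under the 2 CPM limit. With that floor, which allows 0.0482 CPM in homozygous and 0.0367 CPM in heterozygous cells, TSPYL5 was at least 46.3-fold lower in homozygous and at least 60.8-fold lower in heterozygous than in wild-type cells.

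TRIM61, a tripartite motif gene on chromosome 4 (164954446 to 164977668, minus strand), was not silenced alike in the mutants. It had 4, 12 and 10 counts in homozygous libraries (0.334, 0.397 and 0.499 CPM), 0 counts in each heterozygous library and 99, 119 and 91 counts in wild-type libraries (2.66, 3.90 and 3.78 CPM). No library of a genotype overlapped another genotype. The mean in homozygous cells was 8.40-fold lower than in wild-type cells. With the floor of 3 counts it was in heterozygous cells at least 93.8-fold lower than in wild-type cells, and homozygous cells were at least 11.2-fold higher than heterozygous cells.

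PNPLA4 encodes a patatin-like lipid hydrolase and lies on the X chromosome (7898247 to 7927739, minus strand), where it is known to escape X inactivation. Its level was 0.669, 1.76 and 1.30 CPM in homozygous libraries, 1.30, 0.987 and 1.10 CPM in heterozygous libraries and 15.7, 13.8 and 14.9 CPM in wild-type libraries. Both mutants lay far below wild type and overlapped each other. The residue was well above 0, with 87 counts in homozygous and 93 in heterozygous cells, so PNPLA4 was lowered 11.9-fold in homozygous and 13.1-fold in heterozygous cells but not off in either. At 0.669 CPM (interval 0.289 to 1.32) homozygous replicate 1, the shallowest library, could not be told from heterozygous replicate 3 at 1.10 CPM (0.720 to 1.62).

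MAP3K13 was low in homozygous cells but not in heterozygous cells. It encodes a mixed-lineage kinase upstream of the JNK cascade, also called LZK, and spans 185282941 to 185489097 on the plus strand of chromosome 3. Its counts were 3, 10 and 13 in homozygous libraries (0.251, 0.331 and 0.648 CPM), 336, 302 and 324 in heterozygous libraries (10.9, 11 and 13.7 CPM) and 492, 351 and 305 in wild-type libraries (13.2, 11.5 and 12.7 CPM). Heterozygous and wild-type libraries overlapped, and their means differed by a ratio of 0.955, while homozygous libraries were 30.4-fold lower than wild-type ones. Homozygous replicate 3 lay just above the 0.5 CPM limit. Its call as off therefore failed by that library.

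ECHDC3 and NHIP were seen in both mutants and hardly in wild-type cells. NHIP, whose name stands for neuronal hypoxia inducible and placenta associated, is a long noncoding RNA gene in RefSeq on chromosome 22 (49043919 to 49052385, minus strand). It stood at 6.77, 5.93 and 8.18 CPM in homozygous libraries, 5.47, 6.61 and 10.1 CPM in heterozygous libraries and 0.188, 0.0328 and 0.125 CPM in wild-type libraries. The mutants overlapped each other, and the wild-type libraries held 11 counts in all. The ratio of means was 60.5 for homozygous over wild-type cells and 64.2 for heterozygous over wild-type cells.

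ECHDC3, which encodes a mitochondrial protein with an enoyl-CoA hydratase domain, lies on chromosome 10 (11742366 to 11764070, plus strand). It was at 5.10, 3.84 and 3.54 CPM in homozygous libraries, 9.90, 9.79 and 7.33 CPM in heterozygous libraries and 0.617, 0.295 and 0.166 CPM in wild-type libraries. The heterozygous libraries were the highest of the 9, and no genotype overlapped another. The ratio of the homozygous to the heterozygous mean was 0.462. Wild-type replicate 1, with 23 counts, was above the 0.5 CPM limit and the other wild-type libraries below it.

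The remaining 4 members, CSRP1, ASPG, QPCT and SYT11, were higher in every homozygous library than in any other library. CSRP1, a LIM domain protein of the actin cytoskeleton that is abundant in smooth muscle, lies on chromosome 1 (201483530 to 201509456, minus strand). Its level was 4.60, 4.54 and 7.08 CPM in homozygous libraries, 0.391, 0.731 and 0.339 CPM in heterozygous libraries and 0.322, 0.0656 and 0.415 CPM in wild-type libraries. Homozygous libraries stood apart from all 6 others, which overlapped. The smooth muscle and fibroblast markers looked up, 6 of 6 of them in the table, summed to 711 to 865 CPM in homozygous, 604 to 774 CPM in heterozygous and 794 to 1120 CPM in wild-type libraries. Most of that sum was TAGLN, with means of 414, 338 and 600 CPM in those genotypes, and MYL9, with 311, 283 and 326 CPM. ACTA2, which did not pass the filter on low counts, averaged 0.10, 0.0461 and 0.306 CPM. COL1A1 ran the other way, at 49.7, 49.8 and 28.6 CPM. The part of such cells in the CSRP1 level was not tested.

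ASPG encodes an asparaginase, an enzyme that splits asparagine into aspartate and ammonia, on chromosome 14 (104085679 to 104115581, plus strand). It stood at 5.02, 4.60 and 3.09 CPM in homozygous libraries, 0.163, 0.0365 and 0.0424 CPM in heterozygous libraries and 0.295, 0.262 and 0.125 CPM in wild-type libraries. The homozygous libraries were all above the others, by an 18.6-fold ratio of means over wild-type cells and 52.6-fold over heterozygous cells, whose libraries held 7 counts in all.

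SYT11, a synaptotagmin of vesicle trafficking in neurons, lies on chromosome 1 (155859509 to 155885199, plus strand). Its level was 5.27, 4.17 and 2.44 CPM in homozygous libraries, 0.391, 0.219 and 0.127 CPM in heterozygous libraries and 0.161, 0.0984 and 0.0830 CPM in wild-type libraries. Homozygous libraries did not overlap the others, and their mean was 34.7-fold that of wild-type cells. Neuron markers, 5 of 5 of them in the table and none at 0 in a genotype, also summed highest there, to 65.8 to 75.5 CPM in homozygous, 37.5 to 38.3 CPM in heterozygous and 21.1 to 24.4 CPM in wild-type libraries. In homozygous cells most of that sum was STMN2, which had a mean of 49.4, 19.8 and 7.16 CPM in the genotypes in that order, while SNAP25 averaged 0.189, 0.208 and 0.293 CPM. The part of neuron-like cells in the SYT11 level was not tested.

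QPCT varied most among the libraries of the genotype where each gene was highest. It encodes glutaminyl cyclase, which closes N-terminal glutamine into pyroglutamate on peptides and chemokines, and lies on chromosome 2 (37342827 to 37373322, plus strand). It stood at 2.51, 3.48 and 0.898 CPM in homozygous libraries, 0.163, 0.0731 and 0.0848 CPM in heterozygous libraries and 0.215, 0.0984 and 0.166 CPM in wild-type libraries. Homozygous libraries did not overlap the others, but replicate 3 (interval 0.532 to 1.42 CPM) lay below replicates 1 (1.69 to 3.58 CPM) and 2 (2.84 to 4.21 CPM) beyond counting error. The highest homozygous library was 3.87 times the lowest. The same replicate 3 also had the lowest POU5F1 level of the 9 libraries, at 33.5 CPM against 122 and 114 CPM in homozygous replicates 1 and 2. POU5F1 stood at 193, 168 and 116 CPM in heterozygous libraries and 95.3, 56.1 and 57.4 CPM in wild-type libraries, where QPCT was low. The part of residual stem cells in the QPCT level was not tested.

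**Figure D1:**
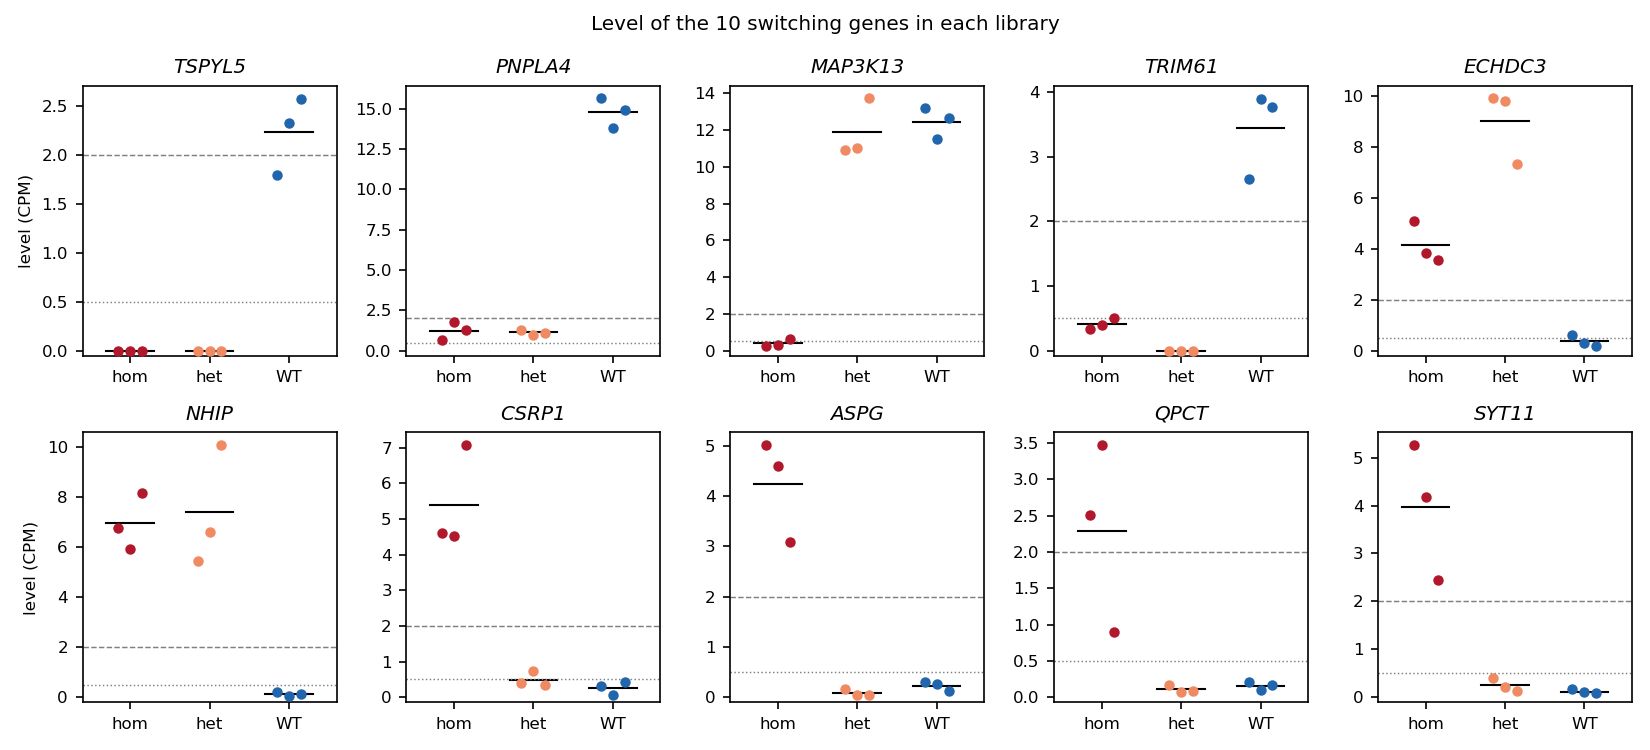
Level of each of the 10 genes in CPM (y axis, a scale per gene starting near 0) in homozygous (hom), heterozygous (het) and wild-type (WT) libraries. Points are the 3 libraries, black lines their mean, and the dotted and dashed lines mark 0.5 and 2 CPM. TSPYL5, PNPLA4 and TRIM61 are high in WT alone, MAP3K13 is low in hom alone, ECHDC3 and NHIP are low in WT alone, and CSRP1, ASPG, QPCT and SYT11 are high in hom alone.

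By the strict limits, 5 of the 10 members were off in every library of 1 genotype and on in every library of another, namely TRIM61, NHIP, CSRP1, ASPG and SYT11. The other 5 missed 1 limit. For TSPYL5, MAP3K13, ECHDC3 and QPCT a single library caused this, wild-type replicate 1 at 1.80 CPM, homozygous replicate 3 at 0.648 CPM, wild-type replicate 1 at 0.617 CPM and homozygous replicate 3 at 0.898 CPM. Without wild-type replicate 1 or without homozygous replicate 3 the count of strict members was 7. PNPLA4 missed the off limit in all 6 mutant libraries. Of all genes in the count matrix, 27 met both limits, 7 of them with zinc finger symbols and 20 without.

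Within the genotype where each gene was highest, the ratio of the highest to the lowest library was 1.13 for PNPLA4, 1.15 for MAP3K13 and 1.35 for ECHDC3. It lay between 1.43 and 1.84 for TSPYL5, TRIM61, NHIP, CSRP1 and ASPG, and reached 2.16 for SYT11 and 3.87 for QPCT. As for QPCT, replicates 3 and 2 of that genotype differed beyond counting error for SYT11, CSRP1, NHIP and ECHDC3. The intervals were 1.807 to 3.23 against 3.475 to 4.966 CPM for SYT11 and 5.964 to 8.345 against 3.808 to 5.361 CPM for CSRP1. They were 8.847 to 11.45 against 5.685 to 7.65 CPM for NHIP and 6.281 to 8.511 against 8.655 to 11.04 CPM for ECHDC3. Levels per kilobase of annotated exon, which NHIP lacks here, used the exons of all annotated transcripts of a gene together. That length can exceed the one expressed, so genes compare only roughly on this scale. The highest mean level was that of PNPLA4 in wild-type cells (4.30 CPM per kb), next to ECHDC3 in heterozygous cells (4.12 CPM per kb). TRIM61 in wild-type cells reached 2.18 CPM per kb. The lowest such levels were those of TSPYL5 in wild-type cells (0.497 CPM per kb) and CSRP1 in homozygous cells (0.524 CPM per kb). For CSRP1 the joined exon length was 10318 bases, against 4491 bases for the single exon of TSPYL5.

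All 10 members passed the filter on low counts. With edgeR's quasi-likelihood test on all genes, 10 of 10 members passed an adjusted p of 0.05 in homozygous against wild-type cells, where 7.65% of 16837 tested genes did. Of the members 6 were higher (3.48% of all tested genes) and 4 lower (4.17%). The counts were 5 of 10 in heterozygous against wild-type cells (1.84% of all tested genes), with 2 higher (0.814%) and 3 lower (1.03%). They were 7 of 10 in homozygous against heterozygous cells (2.23%), with 5 higher (1%) and 2 lower (1.23%). The same numbers of members had libraries that did not overlap, beside 28.9%, 22.2% and 19.5% of all tested genes in those comparisons. These contrasts chose the members, so nothing is read from their counts.

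None of the 10 genes had libraries ordered by CHD7 copy number. CHD7 itself did, with heterozygous cells 49.2% of the way from the wild-type to the homozygous mean. On that scale heterozygous cells lay at 4.61% for MAP3K13, 4.27% for CSRP1, 3.42% for SYT11, -2.47% for QPCT and -3.66% for ASPG, close to wild type. They lay at 100% for TSPYL5, 101% for PNPLA4, 106% for NHIP and 114% for TRIM61, close to or beyond the homozygous mean. ECHDC3 was at 228%, as its heterozygous libraries were the highest. On a log2 scale with 0.5 CPM added the genes fell on the same sides, with MAP3K13, CSRP1 and SYT11 at 1.78% to 12.6%, QPCT at -6.11%, ASPG at -12.1%, and the other 5 at 100% to 142%. A strict order could not be met by TSPYL5, which was at 0 in both mutants. The means of MAP3K13, CSRP1 and SYT11 did run in copy order. CSRP1, SYT11, QPCT and ASPG had only 7 to 40 counts per genotype in heterozygous and wild-type cells. A small step between those genotypes could therefore hardly be seen for these genes. Among all tested genes, 379 (2.25%) had every homozygous, heterozygous and wild-type library in copy order, 200 falling and 179 rising with copy loss. Among the 22 other genes that met both limits, 9 (40.9%) did.

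**Figure D2:**
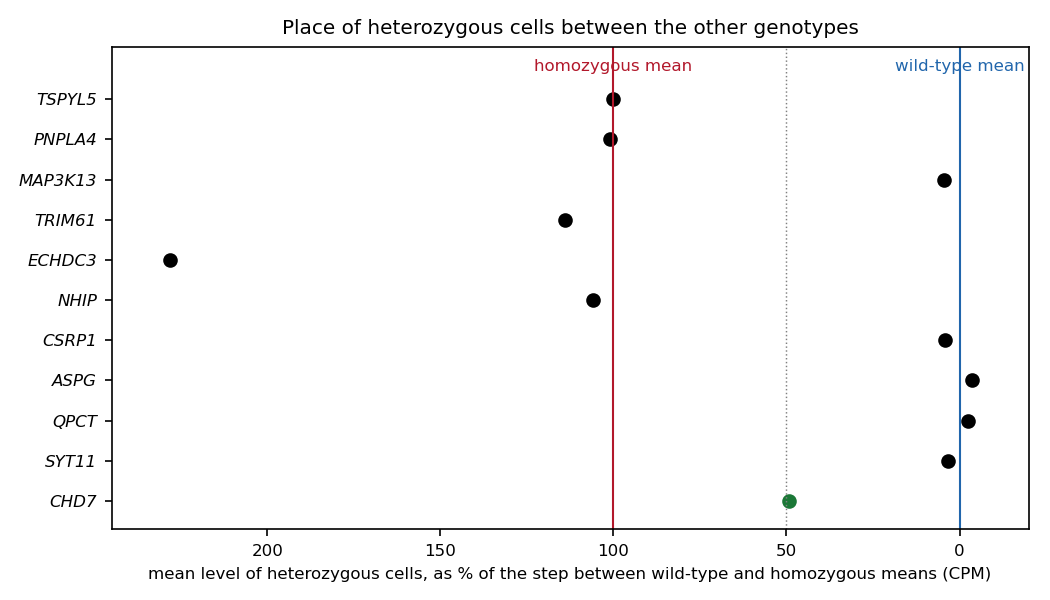
Mean level of heterozygous cells on a scale where 0% is the wild-type mean and 100% the homozygous mean (x axis, percent of the difference in CPM, drawn with the homozygous side on the left), for the 10 genes and CHD7 (green). The dotted line is the midpoint. CHD7 is at 49.2%, and the 10 genes sit within 5% of the wild-type mean or at or beyond the homozygous mean.

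The genes next to the members were examined with the same fit, since the choice of members did not use them. Neighbours were the tested genes that overlap a member and the nearest on each side within 500 kb, 21 genes in all, and PNPLA4 had none. Of the 21, 1 was called for homozygous against wild type (4.76%, beside 7.65% of all tested genes), 0 in heterozygous against wild-type cells and 1 in homozygous against heterozygous cells (4.76%, beside 2.23%). For the count of 0, 2 neighbours had an unadjusted p under 0.05, and DESeq2 and limma-voom also called 0. The called gene was NAV1, a neuron navigator gene of axon growth 113 kb beyond CSRP1. It averaged 97.2 ± 25.2 CPM in homozygous, 60.5 ± 5.60 CPM in heterozygous and 57.3 ± 5.59 CPM in wild-type cells (SD, n = 3 each), a log2 fold change of 0.76 (SE 0.15, edgeR adjusted p = 0.00781) for homozygous against wild-type cells. Its log2 fold change against heterozygous cells was 0.68 (edgeR adjusted p = 0.0363), a call lost without any 1 of 6 libraries (adjusted p up to 0.0943 without heterozygous replicate 3).

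GON4L and EHHADH start next to a member on the opposite strand. GON4L, a nuclear protein gene, starts 167 bases from SYT11, at base 84 of the SYT11 window printed above, so the window holds both starts. GON4L had 53.0, 40.6 and 47.9 CPM in homozygous libraries, 45.7, 50.2 and 53.2 CPM in heterozygous libraries and 48.8, 48.1 and 45.3 CPM in wild-type libraries. The genotypes overlapped, and the log2 fold change of homozygous over wild-type cells was -0.01 (SE 0.10, edgeR adjusted p = 0.954), where that of SYT11 was 4.99 (SE 0.45). EHHADH, a peroxisomal enzyme of fatty acid oxidation, starts 971 bases from MAP3K13. It had 2.17, 2.22 and 1.70 CPM in homozygous libraries, 0.977, 1.35 and 1.10 CPM in heterozygous libraries and 1.53, 0.820 and 0.789 CPM in wild-type libraries, and was not called (log2 fold change 0.92, SE 0.30, edgeR adjusted p = 0.0812), where MAP3K13 had a log2 fold change of -4.88 (SE 0.24).

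Genes that overlap a member were not called either. TMEM41A, which overlaps the end of MAP3K13 on the opposite strand, averaged 24.6 ± 0.625 CPM in homozygous, 21.9 ± 1.06 CPM in heterozygous and 23.2 ± 0.899 CPM in wild-type cells (SD, n = 3 each). FAM218A, which lies inside TRIM61 on the opposite strand, averaged 0.599 ± 0.147, 0.578 ± 0.0625 and 0.945 ± 0.170 CPM in the genotypes in that order (SD, n = 3 each; log2 fold change -0.71, SE 0.33, edgeR adjusted p = 0.216 for homozygous against wild type). Each wild-type library of FAM218A (1.13, 0.918 and 0.789 CPM) lay above each mutant library (0.698 CPM at most), as for TRIM61. These levels rest on 8 to 42 counts per library, so the lack of a call has little weight. Homozygous and wild-type libraries also did not overlap for 28.9% of all tested genes. The pseudogene RPL4P4 inside MAP3K13 was not called (edgeR adjusted p = 0.735). The sources used here do not state a strand setting for the counting, so reads of such overlapping pairs cannot be told apart with certainty. Over the wider span of all 92 tested genes within 500 kb of a member, 7 passed for homozygous against wild type (7.61%, beside 7.65%). In each other comparison 1 passed, and the count of 7 lay between 2 and 11 with 1 library left out. Those 7 genes lay only around TRIM61, CSRP1 and ECHDC3. They were lower around TRIM61 and higher around CSRP1 and ECHDC3, each in the direction of its member. This was seen after the fact and was not tested.

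**Figure D3:**
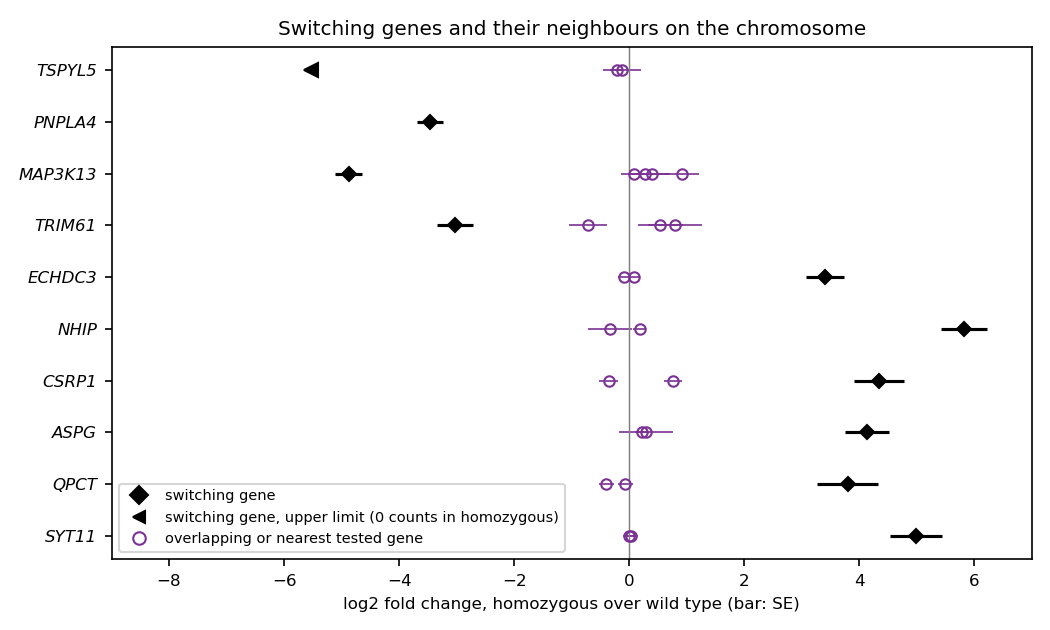
Log2 fold change of homozygous over wild-type cells (x axis, bars are SE) for each of the 10 genes (black) and its overlapping or nearest tested genes (open circles). The triangle of TSPYL5 is an upper limit, as it had 0 counts in homozygous cells. Every circle lies within 1 log2 unit of 0, and every black symbol lies beyond 3.

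Promoter sequence was compared with all RefSeq windows. Windows were found for 8 of the 10 members, 10 windows in all with 3 starts for CSRP1, and TSPYL5 and ASPG had none in the table. The CpG ratio, the observed number of CpG over that expected from the C and G content, was taken in the 250 bases before the start. Of 35116 windows 45.0% had a ratio of at least 0.6 with at least 50% G and C, and so did 7 of the 10 member windows, belonging to 6 of 8 members. The 45.0% counts windows of all RefSeq genes, expressed in these cells or not, so it is not a background matched to the members. MAP3K13 had the highest ratio at 1.08 with 20 CpG, above 96.4% of all windows. It was 0.886 for ECHDC3, 0.848 for SYT11, 0.673 for NHIP and 0.624 for QPCT. CSRP1 had 0.866 and 0.758 at its upstream starts and 0.173 at the most downstream one. The ratios of PNPLA4 (0.503, 9 CpG) and TRIM61 (0.450, 8 CpG), both lower in each mutant, were the only ones among the 8 members with no window at the limit. Over the full 300 bases the ratio of NHIP was 0.542, under the limit. A CpG count is a property of the reference sequence and does not show whether these sites were methylated in the cells.

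**Figure D4:**
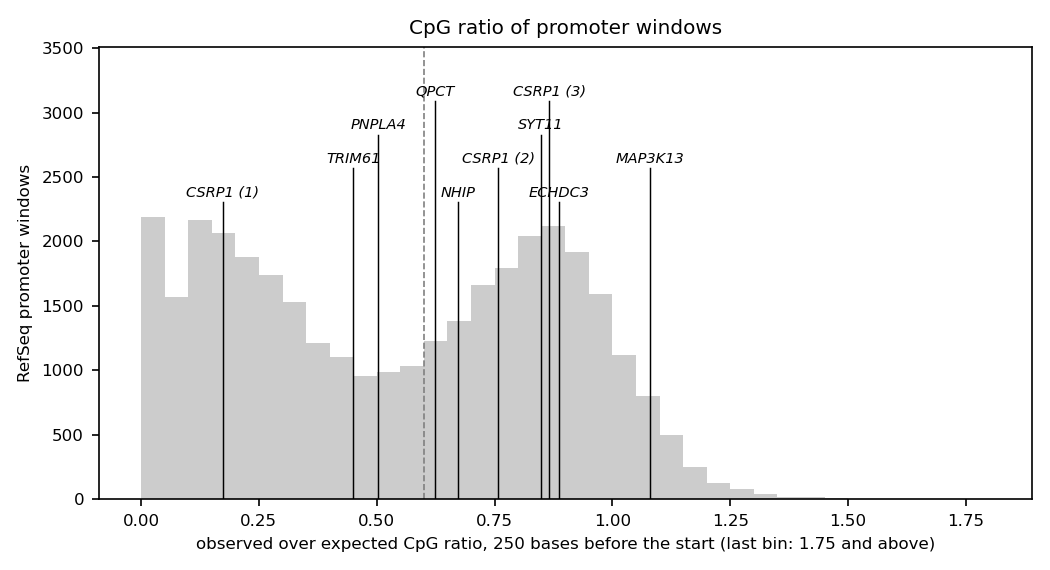
Observed over expected CpG ratio of the 250 bases before each RefSeq start (x axis) and number of windows (y axis, grey bars, 35116 windows), with the 10 member windows as labelled lines and the numbers in parentheses counting the CSRP1 starts by coordinate. The dashed line marks 0.6. MAP3K13 stands highest at 1.08, and PNPLA4, TRIM61 and the most downstream start of CSRP1 stand under the line.

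Relatives and pathway partners of the members were then examined from 11 lists of 219 different genes in all, with TRIM4 in a pair of lists and counted once in the totals. For homozygous against wild type, 26 of the tested genes in these lists were called (11 up and 15 down, 13.8% beside 7.65%). In heterozygous against wild-type cells 8 were called (4.23% beside 1.84%), and in homozygous against heterozygous cells 8 (4.23% beside 2.23%). The lists were chosen with earlier results of these data known, so an excess over all tested genes may be partly built in. The shares called, here and for the single lists below, are therefore descriptions, and no enrichment is read from them. A closest relative with a row in the table was looked up for 8 members. TSPYL4 (edgeR adjusted p = 0.449), PNPLA2 (0.747), MAP3K12 (0.131), ECHDC2 (0.903), CSRP2 (0.131), QPCTL (0.899) and SYT4 (0.297), with p-values for homozygous against wild type, were not called in any comparison. SYT4 was low and uneven, at 0.669, 0.662 and 0 CPM in homozygous libraries, 1.86, 2.19 and 0.0848 CPM in heterozygous libraries and 0.161, 0.0656 and 0 CPM in wild-type libraries, so that its log2 fold change of 2.31 for homozygous against wild type had an SE of 1.26. For TRIM61 the relative TRIM60 has no row in the table, and none was looked up for NHIP. ASRGL1, the asparaginase relative of ASPG, averaged 32.7 ± 5.69 CPM in homozygous, 24.9 ± 3.54 CPM in heterozygous and 21.9 ± 2.19 CPM in wild-type cells (SD, n = 3 each) and rose in homozygous against wild-type cells (log2 fold change 0.57, edgeR adjusted p = 0.0289). Leaving out wild-type replicate 2 (adjusted p = 0.136), wild-type replicate 3, homozygous replicate 1 or homozygous replicate 2 ended that call.

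Around MAP3K13, 3 of 18 tested genes of the JNK cascade passed the test for homozygous against wild type (16.7%), 1 up and 2 down, with a median log2 fold change of -0.07 beside 0.01 for all tested genes. MAPK10, the JNK isoform of the nervous system, fell to 14.1 CPM in homozygous cells, against 32.5 CPM in wild-type cells (log2 fold change -1.19, SE 0.11, edgeR adjusted p = 2.35e-05), and stood at 26.2 CPM in heterozygous cells. The JNK scaffold gene MAPK8IP2 fell to 2.69 CPM in homozygous cells, against 9.64 CPM in wild-type cells (log2 fold change -1.83, SE 0.18, edgeR adjusted p = 4.94e-05), and was at 5.72 CPM in heterozygous cells. MAPK8IP2 was also called in heterozygous against wild-type cells (log2 fold change -0.75, edgeR adjusted p = 0.0363), a call lost without any 1 of 6 libraries (up to 0.209 without wild-type replicate 3).

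Of 42 tested TRIM genes, 4 passed for homozygous against wild type (9.52%), 2 up and 2 down, with a median log2 fold change of 0.00 beside 0.01. TRIM58, a ubiquitin ligase of late erythroblasts, stood at 2.85 CPM in homozygous, 2.89 CPM in heterozygous and 0.284 CPM in wild-type cells, the reverse of TRIM61. Its log2 fold change was 3.31 (SE 0.31, edgeR adjusted p = 3.04e-05) for homozygous and 3.32 (SE 0.30, edgeR adjusted p = 4.39e-05) for heterozygous against wild-type cells. TRIM4, an antiviral ubiquitin ligase known to vary between stem cell lines, fell to 1.95 CPM in homozygous cells, against 7.57 CPM in heterozygous and 5.63 CPM in wild-type cells (log2 fold change -1.51 against wild type, SE 0.22, edgeR adjusted p = 0.000868).

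Among synaptotagmins and their kin 3 of 20 tested genes passed for homozygous against wild type (15%), 1 up and 2 down, with a median of 0.02 beside 0.01. SYT1, the calcium sensor of synaptic release, fell to 1.40 CPM in homozygous cells, against 3.55 CPM in heterozygous and 5.47 CPM in wild-type cells (log2 fold change -1.95 against wild type, SE 0.21, edgeR adjusted p = 7.81e-05), the opposite direction to SYT11. For CSRP1, 3 of 23 tested relatives and SRF targets of the cytoskeleton were called (13.0%), 1 up and 2 down, with a median of -0.11 beside 0.01. The smooth muscle actin gene ACTG2 rose to 2.42 CPM in homozygous cells and 1.82 CPM in heterozygous cells, against 0.508 CPM in wild-type cells (log2 fold change 2.24, SE 0.31, edgeR adjusted p = 0.000658 for homozygous against wild type). The actin-binding gene CALD1 fell to 120 CPM in homozygous cells, against 171 CPM in wild-type cells (log2 fold change -0.51, edgeR adjusted p = 0.00626).

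For NHIP, 3 of 19 tested hypoxia genes fell and 0 rose in homozygous against wild-type cells (15.8%), with a median of -0.11 beside 0.01, while NHIP was higher there. The vasodilator peptide gene ADM fell to 21.5 CPM in homozygous and 33.1 CPM in heterozygous cells, against 53.1 CPM in wild-type cells. The log2 fold changes were -1.30 and -0.68 (edgeR adjusted p = 3.04e-05 and 0.00875). For ECHDC3, 3 of 19 fatty acid oxidation genes were called (15.8%), 2 up and 1 down, with a median of 0.09 beside 0.01. The fall was that of ECHDC1, an enzyme that clears ethylmalonyl-CoA, at 42.3 CPM in homozygous and 52.3 CPM in heterozygous cells, against 67.3 CPM in wild-type cells (log2 fold change -0.67 for homozygous against wild type, SE 0.10, edgeR adjusted p = 0.00139).

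For QPCT, 1 of 11 pyroglutamate enzymes and substrates was called in homozygous against wild-type cells (9.09%; median 0.03 beside 0.01), the chemokine gene CCL2, whose product carries an N-terminal pyroglutamate. It rose to 76.6 CPM in homozygous cells, against 29.9 CPM in wild-type cells (log2 fold change 1.35, SE 0.22, edgeR adjusted p = 0.00208), with 52.4 CPM in heterozygous cells. For ASPG, 3 of 11 asparagine enzymes were called, 2 up and 1 down (27.3%; median 0.00 beside 0.01), and each call was lost when any 1 of at least 4 libraries was left out. For TSPYL5, 1 of 10 family members fell (median -0.12 beside 0.01), the imprinted gene NAP1L5 (log2 fold change -0.96, SE 0.19, edgeR adjusted p = 0.00784). For PNPLA4, 0 of 6 patatin-like genes were called (median 0.09 beside 0.01), also 0 with DESeq2 and limma-voom, and 2 had an unadjusted p under 0.05. Of 11 other genes known to vary between pluripotent lines, 3 were called (27.3%), 1 up and 2 down, with a median of -0.01 beside 0.01. They were TRIM4 and the zinc finger genes ZNF562 and ZNF354C.

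The genes whose levels ran most like a member over the 9 libraries were named by Pearson's r of log2(CPM + 0.5), as a description, since the points share genotype and library. TSPYL5 was most like ZNF229 (r = 0.998), a zinc finger gene at 0 in both mutants and 3.99 CPM in wild-type cells, and then ZNF239 (0.990). PNPLA4 was most like NAT8L (0.990), which makes N-acetylaspartate, and ZNF229 (0.987). TRIM61 was most like MAGEB3 (0.987) and the protocadherin gene PCDHA6 (0.978). MAP3K13 was most like OLIG2 (0.994), a transcription factor of oligodendrocytes at 0 in homozygous, 1.72 CPM in heterozygous and 1.88 CPM in wild-type cells.

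NHIP was most like TRIM58 (0.991) and PCDHA11 (0.990). ECHDC3 was most like STAT3 (0.984), a signal transducer at 40.9 CPM in homozygous, 44.2 CPM in heterozygous and 33.6 CPM in wild-type cells, a far smaller span. ASPG was most like the trophectoderm factor GATA3 (0.993), at 2.95, 1.09 and 1.14 CPM in the genotypes in that order. CSRP1 was most like PRRT1B (0.990), QPCT like WNT4 (0.984) and SYT11 like ERGIC1 (0.989). ERGIC1, of the early secretory pathway, was at 196, 173 and 174 CPM, so a high r here does not mean an on and off pattern. Trophoblast and amnion markers, 5 of 6 of them in the table, summed to 4.01 to 5.34 CPM in homozygous, 3.09 to 3.36 CPM in heterozygous and 3.94 to 4.85 CPM in wild-type libraries. The sum joins GATA3, highest in homozygous cells, with IGFBP3, which averaged 1.54, 1.90 and 2.99 CPM and was highest in wild-type cells. KRT7 had 2 counts in homozygous, 1 count in heterozygous and 0 counts in wild-type cells, too few to compare. The part of such cells in the ASPG level was not tested.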

How the data were processed

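RNA sequencing libraries were made from total RNA of H9-derived endoderm. The authors deposited raw read counts per Ensembl gene, 1 column per library. Per the submitters' processing notes, the tools were HISAT2, HTSeq, Trimmomatic, FastQC and SAMtools, with hg38 as build and no versions or roles named. Annotation release and strand setting: not given in the sources used here.

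Symbols were found for 26234 of 26240 genes, and coordinates for 25209 from GENCODE 29 (GRCh38) and for 40, NHIP among them, from RefSeq on GRCh38.p14. Genotypes and replicate numbers came from the labels. In R 4.3.3 with edgeR 4.0.16, filterByExpr by genotype left 16837 genes, and counts were scaled with TMM and fitted in 1 quasi-likelihood model of all 9 libraries with genotype as the only factor. Tests were two-sided, adjusted with the Benjamini-Hochberg method and called under 0.05. The SE is the log2 fold change divided by the square root of F. On simulated counts for homozygous against wild-type cells (16546 genes), 88% of 2-fold and 100% of 4-fold changes were recovered with 3.80% of calls false. For homozygous against heterozygous cells 82% of 2-fold and 42% of 1.5-fold changes were recovered. Changes were placed only in genes averaging at least 1 CPM, so recovery for genes below that level is not known. Fewer genes were changed than were called in the real data, and no simulated library stood apart from its group. The refit also used a robust dispersion estimate, which the main fit did not. These rates therefore describe the simulated counts and need not hold for the real ones. Replicates of a genotype differed by a chi-square of 2.55 to 30.6 per degree of freedom, so none was treated as a duplicate.

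The 10 members, the gene lists, the neighbour rule and the limits of 0.5 and 2 CPM were chosen with earlier results of these data known. Named genes are the members, CHD7, neighbours that were called, overlap a member or lie within 10 kb of it, up to 4 called genes per list, the closest relative of each member, and up to 2 most alike genes averaging 1 CPM or more over the 9 libraries. Other genes within 500 kb are counted only, except ELF3, named in the closing section. Alternatives were RLE and upper quartile scaling, no filter, DESeq2 1.42.0, limma-voom (limma 3.58.1), the 6 libraries of a comparison, the replicate number as a block, leaving out each library and other CPM limits.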

Additional observations from a re-analysis of the deposited data

How the results depend on the processing

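In every fit of every setting that gave a value, called fold changes of members kept their sign, and RLE, upper quartile and total count scaling left 5 strict on and off members. With an expressed limit of 5 CPM 1 member remained strict, and the whole table held 13 such genes, against 56 with a limit of 1 CPM. Strict members ranged from 5 to 7 and such genes from 27 to 35 with 1 library left out.

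The number of called genes, 1288 for homozygous against wild type, 310 for heterozygous against wild type and 376 for homozygous against heterozygous, ranged over 656 to 2131, 129 to 620 and 142 to 373 with 1 library left out. DESeq2 called 574 for heterozygous against wild type and 833 for homozygous against heterozygous, and the 6 libraries of a comparison alone gave 601 and 176. For homozygous against wild type, 586 genes were higher and 702 lower, and with upper quartile scaling 709 and 603.

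The called neighbours ranged over 1 to 2, 0 to 0 and 0 to 1 with 1 library left out, and for homozygous against heterozygous were 2 with DESeq2 and 0 with 6 libraries. Called relatives ranged over 14 to 38, 4 to 16 and 5 to 9, and for heterozygous against wild type were 14 with DESeq2 and 14 with 6 libraries. The span of 500 kb around members was chosen as an alternative after seeing the data. The cause of these shifts was not tested.

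Replicate numbers pair the libraries by number only, since same-numbered libraries correlated at -0.195 to 0.245 in their deviations from the genotype means. With the replicate block 1495, 485 and 462 genes were called, 1, 0 and 1 of the neighbours.

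Homozygous replicate 1, at 11854173 counts, limits what a count of 0 shows, as 3 counts in that library are 0.251 CPM.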

Other observations

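The strict limits also picked out 15 genes that have no zinc finger symbol and are not among the 10 members. By level in their highest genotype, those with a symbol were led by the antisense gene NECTIN3-AS1, at 48.2 CPM in homozygous, 6.13 CPM in heterozygous and 0.257 CPM in wild-type cells. The calcium-binding protein gene S100A6 stood at 7.70, 2.08 and 0.373 CPM in the same order. LRRC61 and ZBED10P, at 6.77 and 6.13 CPM in homozygous cells, stood at 0.0244 and 0.0358 CPM in heterozygous cells, and at 0.852 and 0.364 CPM in wild-type cells. The clustered protocadherin genes PCDHB5 and PCDHA6 were lower in both mutants, at 0.372 and 0.427 CPM in homozygous and 0.240 and 0.101 CPM in heterozygous cells, against 3.27 and 3.07 CPM in wild-type cells.

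All-or-none genes made up 1.47% of the 476 zinc finger genes that were on in at least 1 genotype and 0.167% of the other genes that were on. The share was not tested. ELF3, an epithelial transcription factor gene within 500 kb of CSRP1, stood at 7.08 CPM in homozygous, 4.74 CPM in heterozygous and 2.39 CPM in wild-type cells (log2 fold change 1.56 for homozygous against wild type, edgeR adjusted p = 0.000503), and was chosen for mention after its values were seen.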
